A study of Homo sapiens with 4 samples.

Results

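The immunoglobulin heavy (IGH), kappa (IGK) and lambda (IGL) loci were examined in maps of H3K27 acetylation (H3K27ac), a histone mark of active promoters and enhancers. The 3 loci were taken as windows on hg19 without flanks, namely chr14:106032001-107289000 for IGH, chr2:89156001-90275000 for IGK and chr22:22380001-23266000 for IGL. The stretch chr22:22589001-22610000, which holds VPREB1, was left out of IGL and is described apart. The windows sum to 3241000 bp. They held 53 of the 44626 peaks called in REH and 229 of the 74504 peaks called in 697, where a peak counted when at least 1 bp of it lay in a window.

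REH and 697 are established B cell precursor leukemia (BCP-ALL, B-ALL in the labels) cell lines, and both were grown in RPMI with fetal bovine serum, with no treatment named. REH carries the ETV6/RUNX1 fusion and 697 does not, and the series was made to compare H3K27ac in a fusion-positive and a fusion-negative cell line. Each cell line is a single line with 1 H3K27ac library and 1 input library, so no difference below has a replicate check and no test between the cell lines was possible. The fusion and all other differences between the cell lines cannot be told apart.

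The libraries were of similar depth, with 65241657 REH and 68911420 697 ChIP tags after removal of duplicates. Even so, peaks covered 67944218 bp of the genome in REH and 101530086 bp in 697, which is 1.49 times more in 697. The values below come from the positions and lengths of the peaks. The pileup deposited for a peak was hardly related to the length of that peak (Spearman rho 0.0476 across the REH peaks and 0.0303 across the 697 peaks, which are not independent). It was related to the pileup of the next peak in the list (0.618 in REH and 0.714 in 697), and pileup heights are therefore not compared. The deposited −log10(p) behaved alike, with a rho of 0.0916 in REH and 0.0653 in 697 to the length of its own peak and of 0.573 and 0.626 to the next peak's value, and so did the −log10(q) (0.0943 and 0.0758, 0.576 and 0.637). Whether these values belong to the peak they are listed with was not tested, and filters on them below carry this doubt.

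A B cell builds its receptor by V(D)J recombination. In IGH, a D segment is joined to a J segment and then a V segment to both, ahead of the constant genes that encode the antibody class. IGK and IGL, which encode the light chains, have V and J segments only, and are usually rearranged after IGH. The DNA between joined segments is removed or inverted, so that a leukemia cell line carries the rearrangements of the cell it came from. The peak lists hold no measure of DNA copies, and a stretch without peaks may lack the mark or lack the DNA, which cannot be told apart here. V segments of a family are similar in sequence, and how reads matching several of them were placed is not given in the sources used here.

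The J segments mark where the V side of each locus meets the constant genes. The first and the last J segment of each locus are shown because the zone that holds them had peaks in both cell lines at IGH and IGL and in neither at IGK. The sequences are whole GENCODE v44 transcript records on GRCh38, which can hold bases beyond the J segment. The IGLJ1 record has 127 bases with its motif at bases 97 to 107, while that of IGKJ1 has 38 bases. Capitals mark the conserved motif by which J segments are recognised, a tryptophan codon in the heavy chain or a phenylalanine codon in the light chains, followed by the glycine motif.
IGHJ1: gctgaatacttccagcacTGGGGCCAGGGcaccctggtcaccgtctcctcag
IGHJ6: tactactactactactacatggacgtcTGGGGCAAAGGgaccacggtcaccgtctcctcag
IGKJ1: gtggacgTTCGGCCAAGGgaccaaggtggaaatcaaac
IGKJ5: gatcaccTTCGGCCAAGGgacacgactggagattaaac
IGLJ1: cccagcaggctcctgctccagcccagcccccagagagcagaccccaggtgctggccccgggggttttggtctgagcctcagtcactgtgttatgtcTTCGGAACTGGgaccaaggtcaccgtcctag
IGLJ7: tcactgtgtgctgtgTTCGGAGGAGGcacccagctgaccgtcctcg
No sequence of the peaks themselves is given, since the peaks are on hg19 and the genome at hand is GRCh38. For the same reason, the zones of constant, J, D and V segments below have approximate hg19 edges, drawn from general knowledge of the loci and compared with GRCh38 only for the order and distances of genes. From IGHA2 to IGHM, for example, GRCh38 spans 272488 bp and the zone of the heavy constant genes 291000 bp. From IGLL5 to IGLC7 it spans 35255 bp, against 44000 bp for the zone of the lambda J and constant segments. The distances were less alike at IGK, with 4763 bp from IGKC to IGKJ1 against a zone of 14000 bp. From the end of IGHM to IGHV6-1, GRCh38 spans 83537 bp, more than the 77000 bp of the heavy J and D zone.

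All 3 loci were covered more in 697 than in REH. At IGH, peaks covered 64758 bp in REH and 193846 bp in 697, 2.99 times as much (log2 1.58). At IGK, REH had 4763 bp and 697 had 35733 bp, 7.5 times as much (log2 2.91). At IGL, the covered lengths were 20376 bp for REH and 133993 bp for 697, a ratio of 6.58 (log2 2.72). Each ratio was larger than that of the whole genome, and divided by the genome's 1.49 they were 2.0 for IGH, 5.02 for IGK and 4.40 for IGL. All 3 loci were thus at least 2 times higher in 697, which held for 27.9% of the 1 Mb tiles of the genome with a peak in either cell line, tiles being of nearly the size of the windows. The opposite, at least 2 times higher in REH, held for 15.5% of tiles and for none of the 3 loci. The share of tiles with a ratio at least as high as that of the locus was 10.9% for IGH, 1.91% for IGK and 2.22% for IGL, among 2617 tiles with a REH peak. When peaks were kept only if their deposited −log10(p) was at least 10, the direction turned at IGH (ratio 0.398) and IGL (0.440), on 5 REH and 2 697 peaks at IGH and on 8 and 2 at IGL. That column is one of those whose values may not be those of the listed peak.

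**Figure D1:**
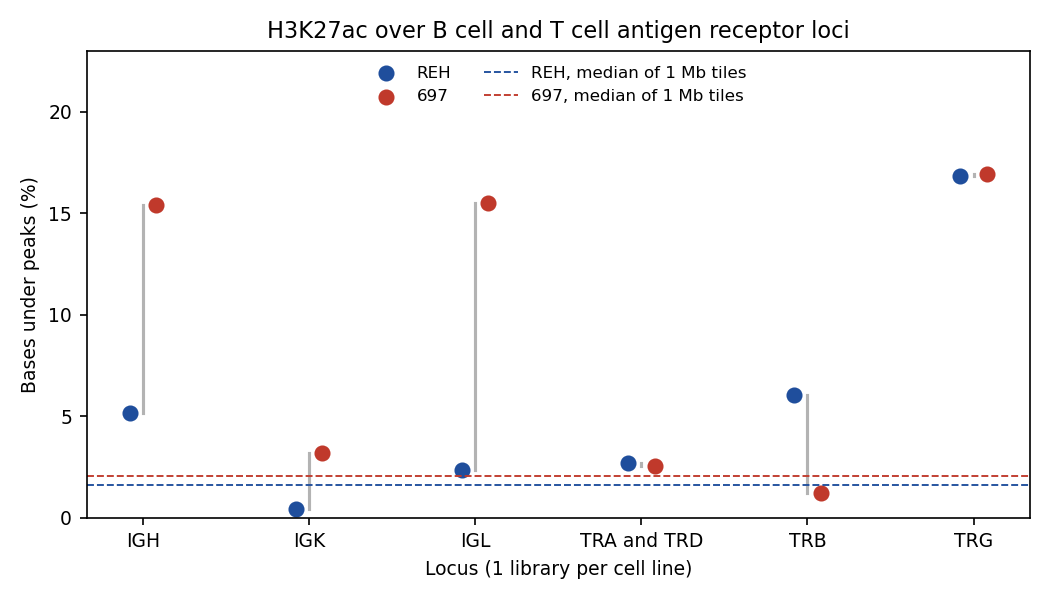
Share of bases under H3K27ac peaks (y axis, percent) at the antigen receptor loci (x axis), with 1 point per cell line and a grey line joining the 2 cell lines. Dashed lines are the medians of 1 Mb tiles, 1.60% in REH and 2.06% in 697. The 697 points of IGH and IGL lie near 15%, well above the REH points, while TRB is the only locus where REH lies clearly above 697.

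In REH, IGH stood above most of the genome and IGK below it. Peaks covered 5.15% of IGH, 2.36% of IGL and 0.426% of IGK in REH, against a median of 1.60% over 2735 tiles of 1 Mb. More tiles were covered to a higher percent than IGK (79.2%) than were above IGL (37.4%) or IGH (13.4%). In 697, the order of the light chain loci was the same, but IGL reached the level of IGH. The covered percents in 697 were 15.5% at IGL, 15.4% at IGH and 3.19% at IGK, with a tile median of 2.06%. Only 2.19% of tiles were above IGL and 2.27% above IGH in 697, while 39.7% were above IGK.

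Most REH peaks of IGH and IGL, but not of IGK, overlapped a 697 peak. In REH, 10 of 53 peaks were without a 697 counterpart, which is 18.9% (95% exact binomial interval 9.44 to 32.0), against 35.9% of all REH peaks. In 697, 185 of 229 peaks were without a REH counterpart, which is 80.8% (75.1 to 85.7), against 61.1% of all 697 peaks. The high share in 697 follows in large part from the unequal peak counts, since 43 REH peaks met 44 697 peaks. Over the genome the counts, 44626 in REH and 74504 in 697, were less unequal. The share in 697 is therefore not a result apart from the counts. These intervals and those below cover counting error only. By locus, 7 of 32 REH peaks stood alone at IGH (21.9%, 9.28 to 40.0), 2 of 3 at IGK and 1 of 18 at IGL (5.56%, 0.141 to 27.3). In 697 it was 87 of 112 peaks at IGH (77.7%, 68.8 to 85.0), 28 of 29 at IGK (96.6%, 82.2 to 99.9) and 70 of 88 at IGL (79.5%, 69.6 to 87.4). In bases, 71.0% of what REH peaks covered at IGH and 75.5% at IGL also lay under 697 peaks, against 51.8% at IGK. Seen from 697, the shared bases were 23.7% of its covered length at IGH, 11.5% at IGL and 6.90% at IGK. With peaks filtered on the deposited q-value (FDR of at most 5%), 9 of 16 REH peaks at IGL stood alone (56.2%), and with a −log10(p) of at least 10 all REH peaks left at IGH and IGL did. These filters thin both lists, and the share over all peaks was not computed under them. The filtered shares therefore cannot be read as particular to the loci.

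**Figure D2:**
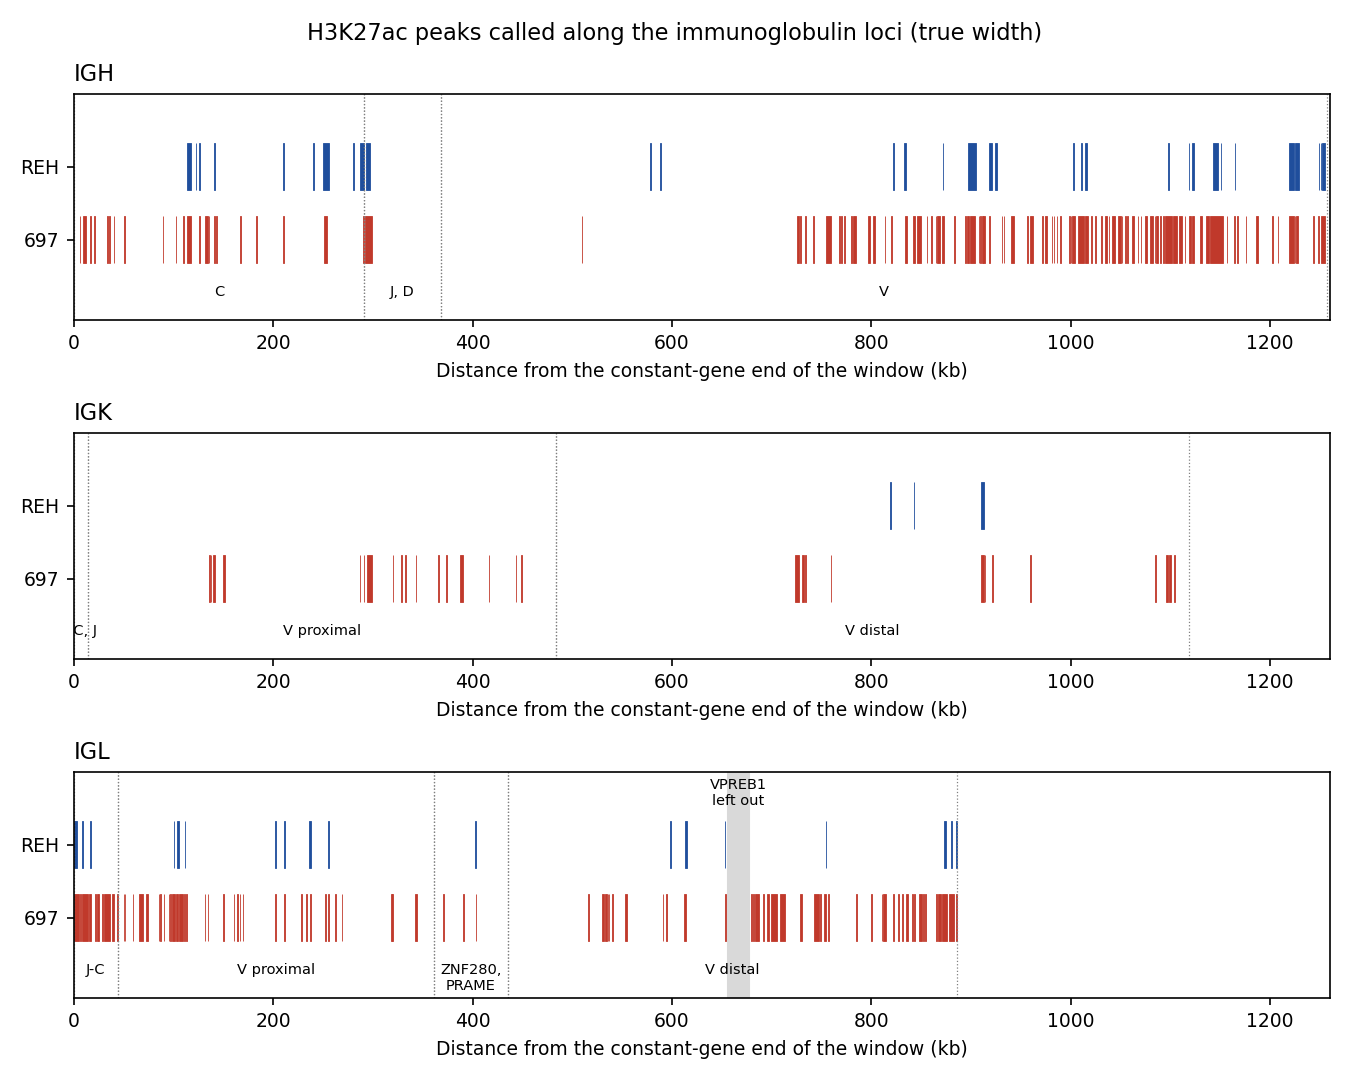
Positions of all peaks at true width along IGH, IGK and IGL, as distance in kb from the end of each window that holds the constant genes, with REH in blue and 697 in red. Dotted lines are the approximate edges of the zones and the grey bar is the VPREB1 window. REH has 32, 3 and 18 peaks and 697 has 112, 29 and 88, and most blue bars stand over a red bar.

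At IGH, the heavy chain locus, both cell lines had peaks at the constant genes, at the J segments and in the far part of the V segments. The ratio of covered bases was highest in the V segments. The zone of the constant genes held 9 REH peaks over 17346 bp (5.96%) and 22 697 peaks over 26668 bp (9.16%), a ratio of 1.54. In the zone of the J and D segments REH peaks covered 5456 bp (7.09%) and 697 peaks 7689 bp (9.99%), a ratio of 1.41. In the zone of the V segments, 22 REH peaks covered 41956 bp (4.72%) and 89 697 peaks covered 159489 bp (17.9%), a ratio of 3.80. The ratios of the first 2 zones were thus near the genome's 1.49, and that of the V segments was above it. The ratio of the constant genes sums parts that differ. In the first 100 kb of the locus, 697 covered 8581 bp and REH 0 bp, and in the next 100 kb 12413 bp and 5303 bp. In the 100 kb after these, which reach into the J segments, it was 13363 bp in 697 and 17499 bp in REH. A peak of each cell line that spans the edge between the constant genes and the J segments is counted in both zones.

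The border between IGHM, the constant gene of the first antibody class a B cell makes, and the J segments was acetylated in both cell lines. The intronic heavy chain enhancer is known to lie between IGHM and the J segments. In REH, this border held the peaks 106318646-106323592 (4947 bp) and 106324662-106329525 (4864 bp), which with 1 peak more formed the REH cluster with most covered bases at IGH. That cluster ran over 106312353-106329525 and was covered to 62.7%. In 697, the border held a peak of 7539 bp at 106323915-106331453 and a shorter one of 709 bp at 106322442-106323150. Of the 5456 bp covered in the J and D zone in REH, 5014 bp were also covered in 697. On the D and V side of these peaks, the stretch 106331454-106541951 (210498 bp) had no peak in either.

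The longest heavy chain peak of each cell line lay in the V segments. In REH, it was 106929272-106937305 with 8034 bp. The others of the 5 longest in REH were 106282108-106287696 (5589 bp) in the constant genes, the peaks of 4947 and 4864 bp at the border to the J segments, and 107175024-107179673 (4650 bp) in the V segments. In 697, the longest was 107172206-107185037 with 12832 bp, over the REH peak of 4650 bp. The peak of 7539 bp at the J segments came next, followed in the V segments by 107126920-107133904 (6985 bp), 107038973-107045141 (6169 bp) and 106930581-106935794 (5214 bp). Each of the 5 longest heavy chain peaks of either cell line overlapped a peak of the other. The REH peaks ranged from 204 to 8034 bp (median 959 bp) and the 697 peaks from 186 to 12832 bp (median 1195.5 bp).

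Peaks that lay no more than 12.5 kb apart were joined into clusters, which made the V segments in 697 appear as 2 long runs. The first ran over 106987831-107219663 with 46 peaks, 41.1% of all 697 peaks of the locus, and was covered to 38.9% of its 231833 bp. The second ran over 106757614-106975036 with 34 peaks (30.4%) and was covered to 24.9% of its 217423 bp. In REH, the 32 peaks fell into 17 clusters of at most 3 peaks, 6 of them single peaks, while the 112 697 peaks fell into 13 clusters. A like picture came from the empty stretches of 50 kb or more. They took 72.3% of the locus in REH, as 7 stretches, and 33.9% in 697, as 2 stretches. Over the whole genome, the median gap between neighbouring peaks was 15645 bp in REH and 6428 bp in 697. Joining at 12.5 kb thus favours longer runs in 697 in general. Clusters and empty stretches were not computed over the genome, so those of the 3 loci have no background.

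Some stretches that were empty in REH held many peaks in 697. The longest in REH was 106329526-106610290 (280765 bp), and 697 had only 2 peaks and 2126 covered bp there. In the next, 106621189-106854126 (232938 bp), 697 had 14 peaks over 22879 bp. In the third, 106032001-106145577 (113577 bp) at the outer end of the constant genes, 697 had 12 peaks over 9102 bp. A shorter one inside the V segments, 107048443-107129986 (81544 bp), held 21 697 peaks over 29951 bp. Conversely, the longer of the 697 stretches, 106542150-106757613 (215464 bp), held 2 REH peaks over 1684 bp. The side of the V segments nearest to the D segments was nearly without peaks in both cell lines. Besides the stretch of 210498 bp named above, 106542150-106610290 (68141 bp) and 106621189-106757613 (136425 bp) were empty in both, and between them lay only 1 short 697 peak and the 2 REH peaks just given.

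**Figure D3:**
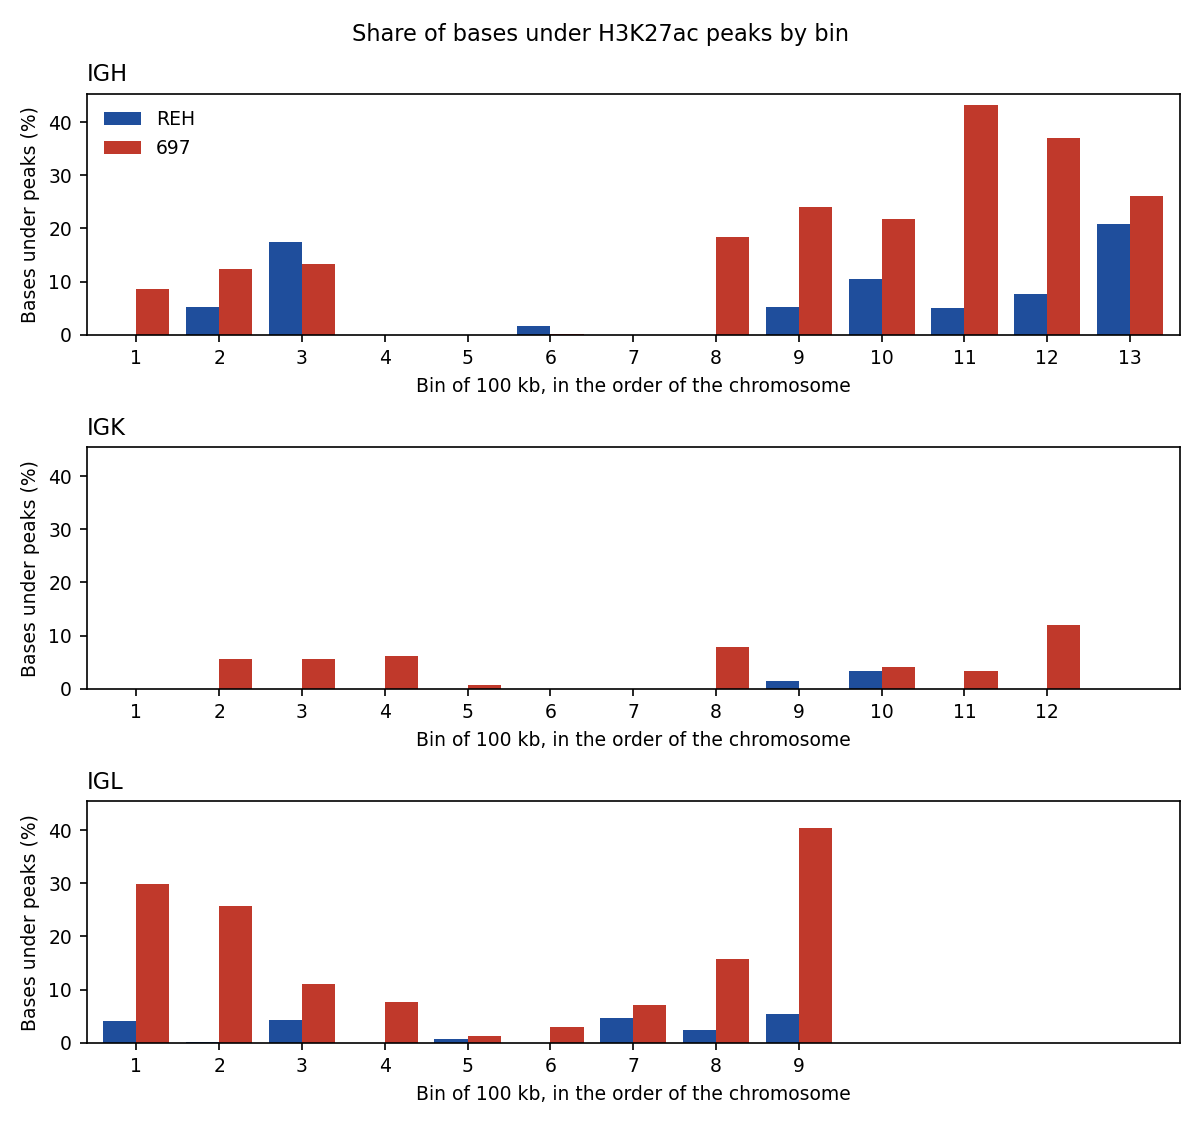
Share of bases under peaks (y axis, percent) in bins of 100 kb (x axis, in the order of the chromosome) for REH in blue and 697 in red; the last bin of a locus can be shorter. At IGH, bins 4, 5 and 7 are at 0 in both cell lines and bins 11 and 12 reach 43.2% and 37.0% in 697, and at IGL the highest 697 bins are the first and the last.

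In bins of 100 kb, 697 was higher along most of each locus. Of 28 bins with a peak in either cell line, 21 were at least 2 times higher in 697, 2 were at least 2 times higher in REH and 5 were neither. Over the genome, 37.7% of such bins were higher in 697 and 22.3% in REH. The count for 697 was 7 of 10 bins at IGH, 7 of 9 at IGK and 7 of 9 at IGL. The REH bins were bin 6 of IGH (1.68% in REH and 0.198% in 697) and bin 9 of IGK (1.48% in REH and none in 697), both sparse. At IGH, bin 3, which holds the end of the constant genes and the J segments, was covered to 17.5% in REH and 13.4% in 697. The bin with the highest covered percent in REH was the last of the locus, at the far end of the V segments. It was covered to 20.8% in REH and 26.1% in 697 but is only 57000 bp wide. In bases, bin 3 held more in REH, 17499 bp against 11882 bp in the last bin. Between them, the largest distance was in bin 11, with 5.10% in REH and 43.2% in 697.

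At IGK, the kappa light chain locus, REH had few called H3K27ac peaks. Its 3 peaks were 90066306-90069592 (3287 bp), 89975033-89976050 (1018 bp) and 89998470-89998927 (458 bp), all in the distal V segments, an inverted copy of the proximal ones. The constant gene IGKC and the J segments lie in the zone chr2:89156001-89170000, where neither cell line had a peak. No REH peak lay in the proximal V segments either, so that REH was empty over 819032 bp from the constant gene end, 89156001-89975032. In that stretch 697 had 21 peaks over 26027 bp. In all, empty stretches took 97.6% of IGK in REH and 73.4% in 697.

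The 29 kappa peaks of 697 were spread over both copies of the V segments. The proximal V segments held 17 peaks over 18107 bp (3.85%) and the distal ones 12 peaks over 17626 bp (2.78%, against 0.750% in REH). An assembly gap of hg19 at the border between both copies was not taken out of the widths. Covered percents of IGK and of the V zone that holds the gap are thus lower, and empty percents higher, than over assembled bases. The percents of both copies are therefore not ranked. The longest were 89450343-89455142 (4800 bp) and 89543844-89546326 (2483 bp) in the proximal V segments, and 89879783-89883861 (4079 bp), 90066363-90068829 (2467 bp) and 90254574-90257012 (2439 bp) in the distal ones. Only 90066363-90068829 overlapped a REH peak, and it began 57 bp from the start of that peak, the longest kappa peak of REH. This was the only kappa place marked in both cell lines, with 2467 bp in common.

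No long run of peaks was seen at IGK in 697. The cluster with most covered bases was 89879783-89890792, with 3 peaks over 7289 bp, and the 29 peaks fell into 12 clusters. The longest stretch without a 697 peak was 89605160-89879782 (274623 bp), where REH had none either, and it holds the border between both copies, where hg19 has an assembly gap. The next was 89916077-90066362 (150286 bp), in which REH had the 2 shorter of its peaks. From the constant gene end, 89156001-89291791 (135791 bp) had no peak in either cell line. In bins, 697 ranged from 0 to 12.1%, and its highest bin was the last, at the far end of the distal V segments.

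At IGL, the lambda light chain locus, 697 had peaks in every bin of 100 kb, and its covered percent was highest at the J and constant segments and low in bins 5 (1.36%) and 6 (3.01%). In that zone, which also holds IGLL5, an immunoglobulin lambda-like gene, 10 697 peaks covered 26677 bp (60.6%) and 3 REH peaks covered 4702 bp (10.7%). All bases covered there in REH were also covered in 697. It was the zone with the highest covered percent in both cell lines among the zones of the 3 loci. In REH, however, most of these bases were the inner end of 1 long peak that runs past the window, beside peaks of 665 and 917 bp. The proximal V segments held 34 697 peaks over 33257 bp (10.5%) and 7 REH peaks over 7126 bp (2.25%). The distal V segments held 41 697 peaks over 71982 bp (16.8%) and 7 REH peaks over 7744 bp (1.81%), a ratio of 9.30. Between the V segments lie the ZNF280 genes and PRAME, which are not immunoglobulin genes, and their zone was sparse, with 804 bp covered in REH (1.07%) and 2077 bp in 697 (2.77%).

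The longest lambda peak of each cell line lay at the outer end of the constant segments and ran past the window. It was 23262881-23279712 (16832 bp) in REH and 23260419-23279528 (19110 bp) in 697, with 13712 and 13528 bp past the edge, and the ends were 184 bp apart. All other REH peaks were far shorter, the next being 22390917-22393182 (2266 bp), 23028345-23030166 (1822 bp), 22651195-22652942 (1748 bp) and 23160516-23162045 (1530 bp). In 697, the next were 23229551-23235822 (6272 bp) and 23251842-23257985 (6144 bp) at the J and constant segments. Then came 22560383-22566187 (5805 bp) and 22390188-22395204 (5017 bp) in the distal V segments. Of these 4, the peaks at 23251842 and 22390188 overlapped a REH peak. With 50 kb added to each side of the window, which takes in the whole of the longest peak, the ratio of covered bases fell from 6.58 to 4.32.

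The lambda peaks of 697 formed longer runs than those of REH, again without a genome background for runs. In REH the leading cluster was 23249162-23279712, with 3 peaks covering 60.3% of 30551 bp. In 697 it was 23152833-23279528, with 25 peaks covering 47.7% of 126696 bp, 28.4% of the lambda peaks of 697. Empty stretches took 82.2% of IGL in REH, as 6 stretches, and 13.0% in 697, as a single stretch. The 3 longest in REH were 22668374-22862271 (193898 bp), 22863076-23010418 (147343 bp) and 22393183-22511372 (118190 bp). They held 9 697 peaks over 8512 bp, 8 over 5465 bp and 17 over 22827 bp. The single empty stretch in 697 was 22749930-22862492 (112563 bp), of which 22749930-22862271 had no peak in REH either.

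VPREB1, a component of the surrogate light chain of the pre-B cell receptor, lies among the lambda V segments and was acetylated in both cell lines. REH had 1 peak in its window, 22600050-22605563 (5514 bp), and 697 had 2, 22592509-22605455 (12947 bp) and 22589471-22591202 (1732 bp). Of the REH peak, 98.0% lay under 697 peaks. The window was covered to 26.3% in REH and to 69.9% in 697. Keeping it in IGL changed no call.

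Where both cell lines had a peak at the same place, the 697 peak was usually the longer one. Over the loci, 36 pairs were found in which each peak met the other and no further one, and 28 of these pairs (77.8%) were longer in 697. The median ratio of length was 1.86. Over the genome, 24932 pairs gave 54.8% and a median ratio of 1.06. The 19 pairs of IGH had a median ratio of 2.01 and the 16 pairs of IGL of 1.87, while the single pair of IGK was shorter in 697 (0.751). Neighbouring peaks of a locus are not independent, and these values are a description.

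**Figure D4:**
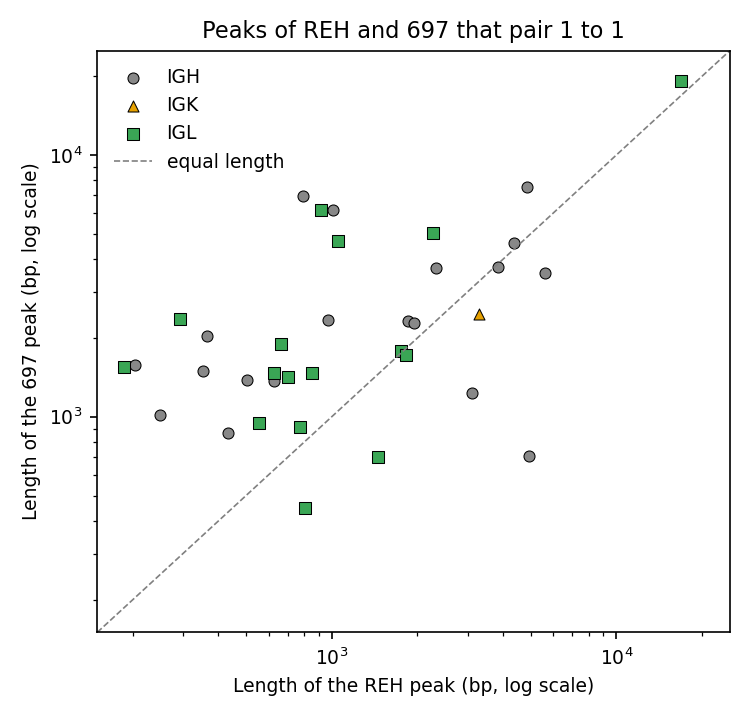
Length of the 697 peak (y axis, bp, log scale) against that of the REH peak (x axis, bp, log scale) for the 36 pairs of peaks that overlap 1 to 1 at IGH (circles), IGK (triangle) and IGL (squares). The dashed line is equal length, and 28 of the 36 pairs lie above it.

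Some pairs matched closely and others hardly at all. In the constant genes of IGH, the peaks 106145578-106149429 (REH) and 106145574-106149319 (697) began 4 bp and ended 110 bp apart. Towards the far end of the V segments, 107251364-107255718 (REH) and 107251056-107255671 (697) also had nearly the same ends. In between, the REH peak 107129987-107130776 of 790 bp lay within the 697 peak of 6985 bp, a ratio of 8.84. The reverse was seen next to the J segments, where the REH peak of 4947 bp met the 697 peak of 709 bp. The median distance between paired starts was 524 bp at the loci and 290 bp over the genome.

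The T cell receptor loci, which rearrange by the same recombinase in T cells and often also in BCP-ALL cells, did not share the direction of the immunoglobulin loci. At TRB, the beta chain locus, 31 REH peaks covered 31133 bp (6.07%) and 11 697 peaks covered 6337 bp (1.24%), 4.91 times more in REH. At TRA and TRD, the alpha and delta chain loci, 15 REH peaks covered 25087 bp (2.69%) and 18 697 peaks covered 23883 bp (2.57%). TRG, the gamma chain locus, was covered to 16.8% by REH peaks and to 17.0% by 697 peaks. In bins of 100 kb, REH was at least 2 times higher in 5 of 6 bins of TRB and 697 in none. At TRA and TRD, of 4 bins with a peak, 1 was higher in REH and 1 in 697, and at TRG 0 of 2 bins were higher in either. Over the genome, 22.3% of such bins were higher in REH and 37.7% in 697. These loci differ from the immunoglobulin loci in size, and their edges are approximate as well, so the values are set side by side without a test.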

How the data were processed

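H3K27ac ChIP-seq was performed on REH and 697, with input DNA of each cell line as control. The reads were mapped to hg19 (Bowtie2 and MACS2 in the submitters' processing notes), and peaks were called against the input by the authors with MACS (2.1.0.20150731, broad calling, q-value cutoffs 0.05 and 0.1). Per the file headers, each peak has a start, an end and a length in bp, a pileup signal, a fold enrichment (a ratio on a linear scale), and a p-value and q-value on the −log10 scale. The authors deposited no counts per peak.

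Peaks were taken as deposited and intersected with the windows. Covered bases were counted inside the windows, while clusters were made of whole peaks. Bases under peaks, peaks without a peak of the other cell line (1 bp overlap), clusters (gaps up to 12.5 kb), stretches of 50 kb or more without a peak, and bins of 100 kb were computed for each cell line. A region was called higher when only 1 cell line had a peak there or covered bases differed at least 2 times. The same rule was applied to tiles of the whole genome. Intervals, where given, are 95% exact (Clopper-Pearson) ones for the share of peaks without a peak of the other cell line. In each locus and cell line, the 5 longest peaks, the cluster with most covered bases and the 3 longest empty stretches are named; further peaks, clusters and stretches were picked after their values were seen. The loci, windows and rules were chosen with earlier results of these data known. The p-value and q-value columns, on the −log10 scale as the authors deposited them, were used only to filter peaks in alternatives. The scripts were tested on simulated data with 5000 peaks in each list. The software was matplotlib 3.10.9, scipy 1.17.1, pandas 2.3.3 and numpy 2.4.6 under Python 3.11.15. The input libraries enter only through the peak calls.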

Additional observations from a re-analysis of the deposited data

How the results depend on the processing

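Of 150 alternative values, 109 stayed close to the reported ones, and 19 of 21 alternative ratios of covered bases were above 1. A deposited −log10(p) of at least 10 reversed the log2 ratio at IGH (-1.33) and IGL (-1.19). It left 5 REH and 2 697 peaks at IGH, 0 and 7 at IGK, and 8 and 2 at IGL, of which 100% had no peak of the other cell line. The deposited p-values and q-values were hardly related to the length of their own peak and may not belong to it, so both filters may keep other peaks than meant, and the cause was not tested. An FDR of at most 5% left 73 697 peaks at IGH and 50 at IGL, and put the peaks without a counterpart at 100% for both cell lines at IGK and at 56.2% for REH at IGL. Peaks of at least 1 kb numbered 15 in REH and 64 in 697 at IGH, 12 in 697 at IGK, and 8 in REH and 44 in 697 at IGL. Equal numbers of the longest peaks left 15 697 peaks at IGK and 57 at IGL. Flanks of 50 kb gave a log2 ratio of 2.11 at IGL. Counting a peak as shared by its midpoint gave 88.6% for 697 at IGL. For the shares without a counterpart in this paragraph, the share over all peaks was not computed under the same setting.

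With a gap of 5 kb, 697 had 38 clusters at IGH, 19 at IGK and 34 at IGL. With 25 kb, REH had 10 at IGH, and 697 had 7 at IGH and 8 at IGL. Empty stretches of 100 kb or more numbered 3 in REH at IGH and 3 at IGL. Bins of 50 kb higher in 697 numbered 14 of 20 with a peak at IGH, 11 of 13 at IGK and 13 of 17 at IGL. Counting only bins with a peak in 1 cell line left 0 bins for REH and 2 for 697 at IGH and 2 for 697 at IGL. Merging peaks, an overlap of 50% of the shorter peak, midpoints in the window and keeping VPREB1 changed no call. Division by the genome's ratio lowers every locus by the same factor, so its 3 values, counted among the 109, could not test closeness. After that division all 3 loci were still at least 2 times higher in 697, IGH only just. With a 3-fold rule, 5 bins at IGH and 6 at IGL were higher in 697 instead of 7 each, and the ratio of IGH, 2.99, would be just under it. Genome shares of bins were computed only for bins of 100 kb with the rule of at least 2 times. The counts of bins in this paragraph thus have no genome share to be read against.

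No paired analysis was possible because each cell line has 1 H3K27ac library. The depth per peak is unknown, the zones' edges are approximate, and peak lists show neither copies of DNA nor reads below the cutoff. With 1 library per cell line, differences between cultures and between cell lines cannot be told apart.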
